A study of Mus musculus with 2 samples.

Results

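Predicted piRNAs that lie in LINE repeats of families other than L1 were described in the small RNA cargo of mouse testicular extracellular vesicles (EVs). The members are the predicted piRNA entries whose deposited repeat class is a LINE but not L1, and entries that share a deposited repeat interval were taken as 1 locus. This gave 44 loci with 202 entries, of 1648 loci with 6587 entries over all predicted piRNAs with an interval. The EVs came from the testes of adult C57/BL6 mice and had been exposed to proteinase K and RNase A, which digest protein and RNA outside vesicles, ahead of RNA extraction. With 1 condition and 2 libraries, no test between conditions could be made. It is not stated whether different animals or separate EV isolations stand behind the libraries, and the spread between them may be technical. The listed counts summed to 21970654 in library 1 and 24829208 in library 2, and levels are given as counts per 1000000 of these sums (CPM).

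piRNAs are small RNAs bound by PIWI proteins in germ cells, where they guide the silencing of transposons. In the adult mouse testis most of them are cut from long single-stranded precursors that are transcribed from a limited number of genomic regions during the pachytene stage of meiosis. L1 is the LINE family that still moves in the mouse, whereas L2, CR1 and RTE-X are old families whose copies are mostly short, diverged and no longer mobile.

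Repeat sequences are shown for 3 loci that lie with their flanks inside a lincRNA exon and so could be read from its transcript (GENCODE M21, build GRCm38), among them the fourth and the eighth locus by level. They are 2 L2 loci on the exon of the lincRNA 1700029M20Rik, at chr4:135628940-135629000 and chr4:135627927-135627991 on the plus strand, and 1 L2 locus at chr3:34876066-34876173 on the minus strand, opposite an exon of the lincRNA Gm21388. Each is written 5′ to 3′ on the deposited strand of the locus, with the repeat interval in capitals and 20 bases of flank on either side in lower case.
L2 locus of 61 bases, chromosome 4: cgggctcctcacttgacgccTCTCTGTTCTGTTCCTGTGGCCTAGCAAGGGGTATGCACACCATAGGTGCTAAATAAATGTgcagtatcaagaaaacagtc
L2 locus of 65 bases, chromosome 4: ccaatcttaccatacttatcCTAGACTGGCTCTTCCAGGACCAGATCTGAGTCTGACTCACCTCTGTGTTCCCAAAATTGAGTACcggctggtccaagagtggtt
L2 locus of 108 bases, chromosome 3: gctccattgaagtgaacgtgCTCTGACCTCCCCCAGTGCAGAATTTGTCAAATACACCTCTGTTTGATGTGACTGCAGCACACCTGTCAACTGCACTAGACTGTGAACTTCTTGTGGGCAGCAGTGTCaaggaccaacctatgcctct
The repeat intervals had a GC content of 45.9%, 49.2% and 50%, in the order shown. Their longest shared runs were 6 bases between the chromosome 4 loci, and 7 and 9 bases between each of these and the chromosome 3 locus. The copies of the same family on 1 exon thus shared no run longer than 6 bases, and their levels differed as well. The 61-base locus held 13 entries with 1502 and 1791 counts in libraries 1 and 2, whereas the 65-base locus on the same exon held 1 entry with 11 and 13 counts. The chromosome 3 locus held 7 entries with 649 and 597 counts.

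A CR1 locus of 56 bases, chr13:109324736-109324791 on the minus strand, lies opposite the miRNA gene Mir582. Its hairpin is shown because the repeat interval and the miRNA gene share these bases, with the locus deposited on the strand opposite the gene. The hairpin, on the plus strand, is given from RefSeq (GRCm38.p6) with the part inside the CR1 interval in capitals, followed by the mature miR-582-5p in capitals.
Mir582 hairpin: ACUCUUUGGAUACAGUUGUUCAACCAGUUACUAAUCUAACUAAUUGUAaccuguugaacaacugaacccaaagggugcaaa
mmu-miR-582-5p: AUACAGUUGUUCAACCAGUUAC
Of the 81 bases of the hairpin, 48 lie in the CR1 locus, including all 22 bases of miR-582-5p and 2 bases of miR-582-3p. The predicted piRNA of this locus had 23 and 22 counts in libraries 1 and 2, and miR-582-5p had 14 and 24. Neither the predicted piRNA nor the miRNA was above 24 counts in either library. The strand of the predicted piRNA itself is not known, since the deposited strand may be that of the repeat.

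The non-L1 LINE entries together held 17475 and 20656 counts in libraries 1 and 2, which is 795 and 832 CPM (mean 814 ± 25.8, SD, n = 2). Their share of all predicted piRNA counts was 3.12% in library 1 (exact Clopper-Pearson 95% interval 3.07% to 3.16%) and 3.75% in library 2 (3.70% to 3.80%), with a mean of 3.43% ± 0.444 (SD, n = 2). The intervals cover counting error only, and they may understate it, because PCR copies are not independent molecules. By mean level the class ranked 6th of 8 repeat classes, between the ERV1 retroviral repeats at 1386 CPM and the DNA transposons at 634 CPM. The scale of all CPM rests on 4 unannotated entries (repeat, intergenic, intron and exon) that are part of the listed counts, and without them the members were at 2990 and 3236 CPM (mean 3113). Entries with at least 100 counts in both libraries made up 506 CPM. The order of the libraries for the summed level depended on the scaling, since TMM scaling gave 848 and 780 and DESeq2 size factors gave 846 and 782 for libraries 1 and 2. Each member entry had at least 10 counts in both libraries, so all 202 passed the count minimum of 10. The median member had 32.5 counts in library 1 and 36 in library 2.

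L2 carried most of the signal. Its 35 loci with 172 entries had 746 and 768 CPM in libraries 1 and 2 (mean 757 ± 15.9, SD, n = 2), which is 93.8% and 92.4% of the non-L1 LINE counts. CR1, a LINE family first described in birds, had 8 loci with 22 entries at 38.2 and 52.4 CPM (mean 45.3 ± 9.99, SD, n = 2), or 4.81% and 6.29%. RTE-X had 1 locus with 8 entries at 11.29 and 11.28 CPM. No other LINE family was listed among the predicted piRNAs.

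The counts were concentrated in a few loci. The highest locus held 16.2% and 18.3% of the member counts of libraries 1 and 2, the 4 highest held 51.4% and 53.6%, and the 10 highest held 75.9% and 76.5%. The 10 highest of 354 L1 loci held 55.6% and 59.0% of the L1 counts, and a smaller number of loci makes such a share larger. At the other end, 21 of the 44 loci had a mean under 3 CPM and 9 were under 1 CPM. The median locus was at 3.43 CPM, against 2.40 CPM for L1 loci and 2.38 CPM over all predicted piRNA loci. The loci were short, with a median of 108.5 bases against 532.5 for L1 and 329 for the LTR repeats of the ERVL-MaLR class. A single entry was listed for 14 of the 44 loci (31.8%), compared with 57.9% of L1 loci and 55.9% of all loci, so the short non-L1 copies were more often represented by several entries. The share of single-entry loci was not tested, since loci of 1 region are not independent.

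**Figure D1:**
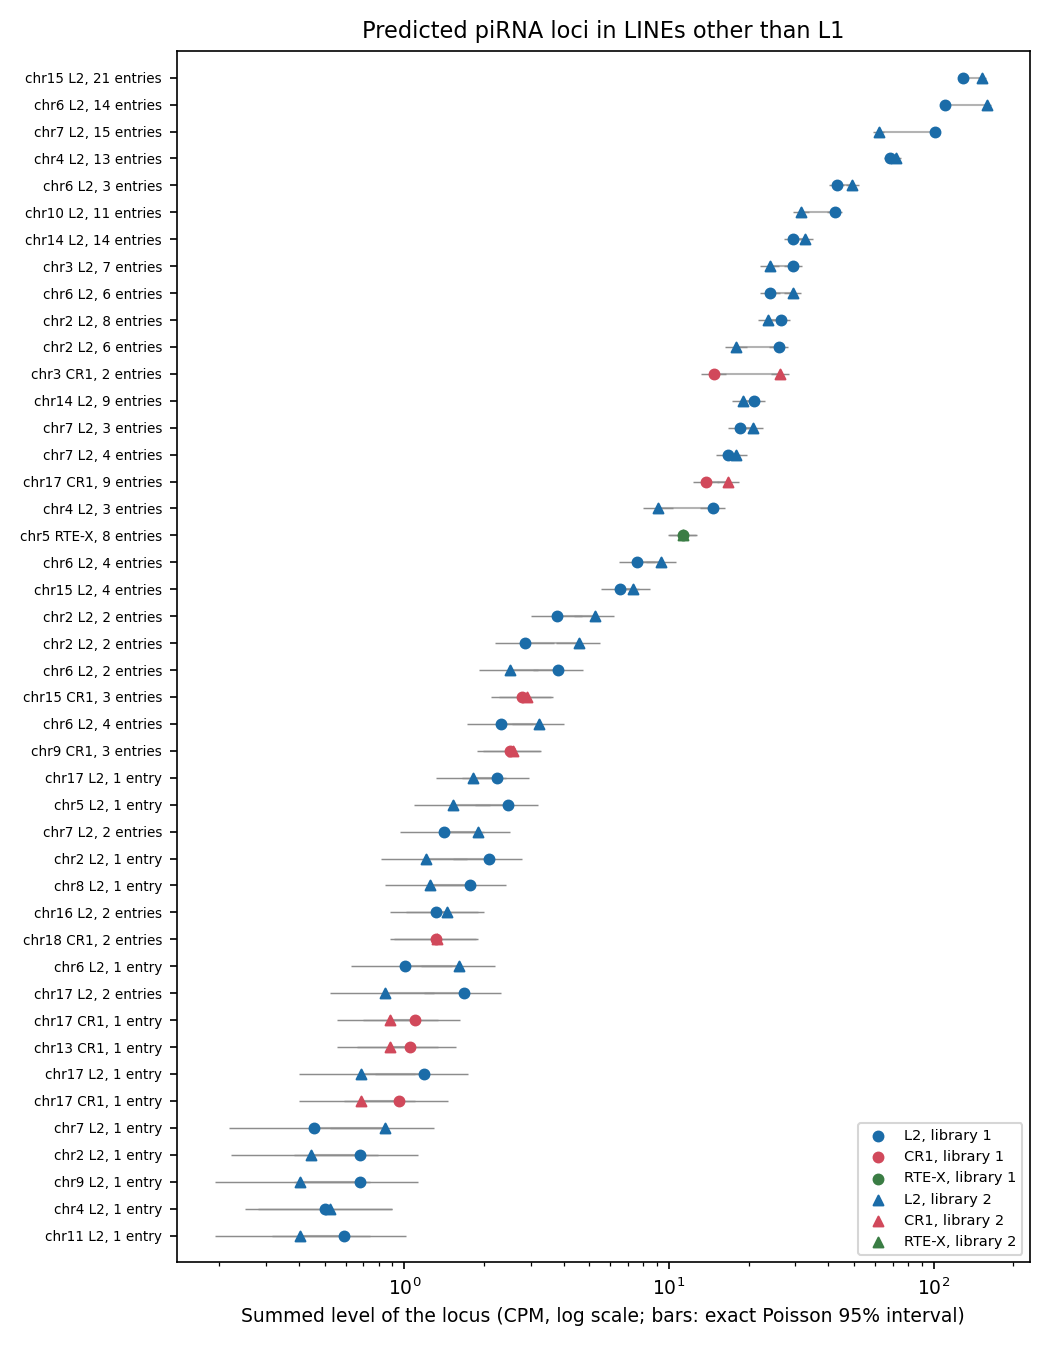
Level of each of the 44 loci in library 1 (circles) and library 2 (triangles), in CPM on a log axis, ordered by mean and coloured by LINE family, with exact Poisson 95% intervals for counting error. The levels run from under 1 CPM to 152 and 160 CPM in library 2 for the top pair of loci, and the 8 CR1 loci are spread from the upper middle to the low end.

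The highest locus was an L2 copy of 245 bases on chromosome 15 (plus strand, 59257942 to 59258186), which lies outside annotated genes. Its 21 entries summed to 129 CPM in library 1 and 152 CPM in library 2. The leading entry, novel_pir27112, had 914 and 2463 counts, the highest mean of all members, and its share of the locus went from 32.2% in library 1 to 65.2% in library 2. The next entries there moved the other way, with novel_pir27129 at 728 and 557 counts and novel_pir27115 at 513 and 143.

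The second locus was an L2 copy of 226 bases on chromosome 6 (minus strand, 127817614 to 127817839), also outside annotated genes, at 110 and 160 CPM. Its leading entries were novel_pir50277, with 933 and 1372 counts, and novel_pir50274, with 908 and 656. The third, novel_pir50287, was listed with 83 counts and then 1085, an 11.6-fold difference in CPM. In the same locus novel_pir50281 had 109 and 498 counts, so the locus was higher in library 2 mainly through 3 of its 14 entries.

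The third locus, on chromosome 7 (minus strand, 73795129 to 73795260), lies in an intron of the lincRNA Gm10619. It had 15 entries and was higher in library 1, at 101 CPM against 62.0 CPM. Its leading entry, novel_pir51324, had 690 and 487 counts and held a similar share of the locus in both libraries, 31.0% and 31.6%.

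The fourth locus was the 61-base copy on the 1700029M20Rik exon shown above. Its sum was nearly equal in the libraries, at 68.4 and 72.1 CPM, while its entries were not. The leading entry, novel_pir43029, fell from 45.1% of the locus in library 1 to 21.6% in library 2, with 677 and 387 counts. Against it, novel_pir43027 had 24 and 253 counts and novel_pir43037 had 16 and 225, a 12.4-fold difference in CPM. Of the 13 entries 8 were over 2-fold apart, 5 of them higher in library 2 and 3 higher in library 1. With 13 entries in 61 bases these predicted piRNAs necessarily share bases with each other.

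**Figure D2:**
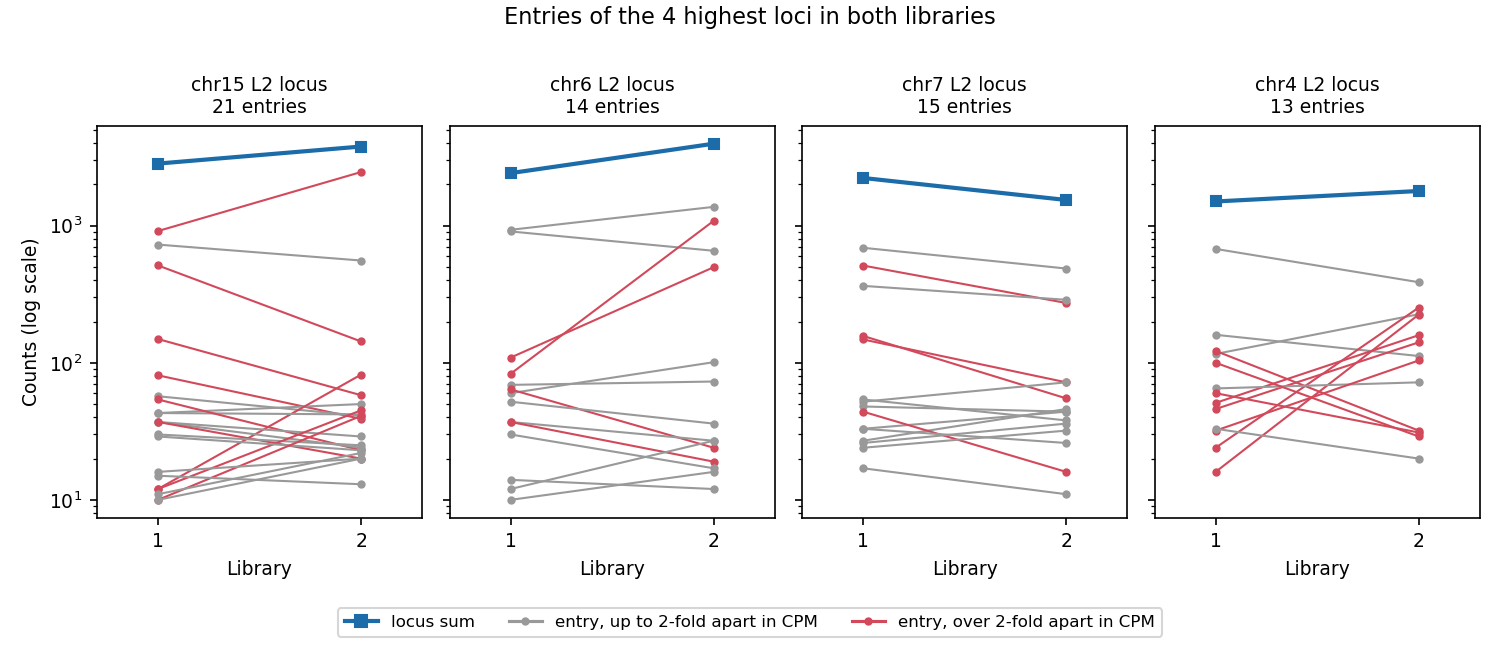
Counts of every entry (thin lines) and of the whole locus (thick blue line) in libraries 1 and 2 for the 4 highest loci, on a log axis, with entries over 2-fold apart in CPM in red. The chromosome 4 sum is nearly level while its entries cross, 8 of 13 being over 2-fold apart, whereas the chromosome 6 sum is higher in library 2 (1.45-fold in CPM) and the chromosome 7 sum higher in library 1 (1.64-fold).

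The other loci among the 10 highest were all L2. A copy of only 46 bases on chromosome 6 (plus strand, 87991086 to 87991131), in an intron of the antisense gene Gm5577, was at 43.1 and 49.2 CPM, and novel_pir48905 alone made up 96.6% and 96.5% of it, with 914 and 1178 counts. A copy in an intron of Stox1, which encodes a DNA-binding protein, lies on chromosome 10 (minus strand, 62681105 to 62681241) and was at 42.2 and 31.5 CPM. Its leading entry novel_pir10471 had 483 and 157 counts. The chromosome 14 locus (minus strand, 24084065 to 24084170) was at 29.4 and 32.7 CPM with novel_pir24125 leading at 298 and 319 counts. The locus opposite Gm21388 was at 29.5 and 24.0 CPM with novel_pir41130 leading at 365 and 199 counts. A further chromosome 6 copy (minus strand, 127813447 to 127813781) was at 24.1 and 29.4 CPM with novel_pir49745 leading both libraries. The longest member, 831 bases on chromosome 2 (plus strand, 92554488 to 92555318), was at 26.5 and 23.6 CPM, and novel_pir39977 held 62.5% and 66.1% of it. These loci thus ranged from copies carried by a single entry to copies whose counts were divided over 14 entries.

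The CR1 loci were lower and more scattered. The highest, on chromosome 3 (minus strand, 84647644 to 84647729) in an intron of the gene Gm37240, had 324 and 654 counts, or 14.7 and 26.3 CPM. Novel_pir41142 held 95.4% and 98.5% of these counts. It was the member locus of at least 100 mean counts that was furthest apart between the libraries, 1.79-fold, and the nearest other predicted piRNA locus was 1698740 bp away. This locus alone held 324 of the 840 CR1 counts in library 1 and 654 of the 1300 in library 2.

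The second CR1 locus, on chromosome 17 (minus strand, 27341860 to 27342046), had 9 entries at 13.8 and 16.8 CPM with novel_pir32121 leading at 73 and 137 counts. Another CR1 fragment, from 27341398 to 27341443, had 1 entry with 24 and 22 counts. Between them, directly abutting both, lay an ERVL-MaLR repeat from 27341444 to 27341859 on the same deposited strand, with 21 entries and 2996 and 6557 counts. The CR1 fragments thus flanked a repeat at 136 and 264 CPM, well above either of them.

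The remaining CR1 loci were at or under 3 CPM. On chromosome 15 (plus strand, 78662155 to 78662225) the locus had 61 and 72 counts over 3 entries, and its highest entry was novel_pir27808 in library 1 and novel_pir27809 in library 2. The chromosome 9 locus (plus strand, 54215044 to 54215180), opposite an intron of Cyp19a1, the aromatase that makes estrogen from androgen, had 55 and 64 counts with novel_pir56705 leading. The chromosome 18 locus (minus strand, 67067111 to 67067169), opposite an exon of the lincRNA AC140207.2, had 29 and 33 counts with novel_pir34326 leading. The locus opposite Mir582 is given above. The lowest, on chromosome 17 (plus strand, 27153874 to 27154019), lay opposite an intron of Ip6k3, an inositol hexakisphosphate kinase gene, with 21 and 17 counts. In all of these the Poisson intervals of the libraries overlapped.

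The RTE-X locus, on chromosome 5 (minus strand, 149804038 to 149804154) in an intron of the lincRNA Gm21221, had 248 and 280 counts. It was the most nearly equal of the members in summed CPM, 1.00-fold apart, and yet the only locus of at least 5 entries whose leading entry changed. Novel_pir47384 led in library 1 with 80 counts against 54 in library 2, and novel_pir47363 led in library 2 with 77 counts against 17.

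Single entries spread between the libraries about as much as other predicted piRNA entries did. With 0.5 added to each count, 53 of the 202 member entries (26.2%) were over 2-fold apart in CPM, 29 higher in library 2 and 24 higher in library 1. The split depended on the scaling, with 22 higher in library 2 and 35 in library 1 under TMM, and 22 and 34 under DESeq2 size factors. No background is given under these scalings, and the shares that follow are in CPM. Both scalings moved the median log2 ratio of all listed entries from 0.19 to 0.01. The background was 33.0% over the 23876 listed entries whose mean count was 10 or more, made up of 20.6% higher in library 2 and 12.3% higher in library 1, and 28.6% over all predicted piRNA entries. The background over listed entries asked only for a mean count of 10, whereas every member had at least 10 counts in each library. The member share was near that of all predicted piRNA entries. Among entries of at least 100 mean counts it was 14 of 39 (35.9%), against 28.9% of 917 predicted piRNA entries. The median log2 ratio of library 2 over library 1 was -0.14 for member entries and 0.19 for all listed entries, and single members ranged from -2.09 to 3.60.

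By locus the libraries were closer than by single entry. None of the 44 loci was over 2-fold apart, where the background was 25.2% of the 1648 predicted piRNA loci (415 loci), and log2 ratios of the member loci ran from -0.98 to 0.86 with a median of 0.02. No test was made of this count of 0, since there is 1 condition. In the 14 member loci with a single entry nothing is summed, and such loci were 31.8% of the members but 55.9% of all loci. An L2 locus on chromosome 17 (minus strand, 27364992 to 27365055) with 37 and 21 counts was at 1.99-fold, just inside the 2-fold limit, and it passed the limit under TMM and DESeq2 scaling. Among loci of at least 100 mean counts 0 of 21 members were over 2-fold apart, compared with 104 of all 582 such loci (17.9%). By exact Poisson 95% intervals of the CPM, 11 of the 44 loci did not overlap between the libraries, 6 higher in library 2 and 5 higher in library 1. The background, also in CPM, was 39.4% of all predicted piRNA loci. Under both TMM and DESeq2 scaling the member loci whose intervals did not overlap were 2 higher in library 2 and 10 higher in library 1. No share over all loci is given under these scalings, which also moved the ratios of all listed entries towards library 1. After the CR1 locus on chromosome 3, the loci furthest apart with at least 100 mean counts were the third-ranked locus on chromosome 7 (1.64-fold) and an L2 locus on chromosome 4 (plus strand, 94330457 to 94330664; 322 and 226 counts, 1.61-fold, led by novel_pir43194), both higher in library 1. The second-ranked locus on chromosome 6 (1.45-fold, higher in library 2) and an L2 locus on chromosome 2 (plus strand, 92566611 to 92566746; 572 and 446 counts, 1.45-fold, led by novel_pir38302, higher in library 1) followed.

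**Figure D3:**
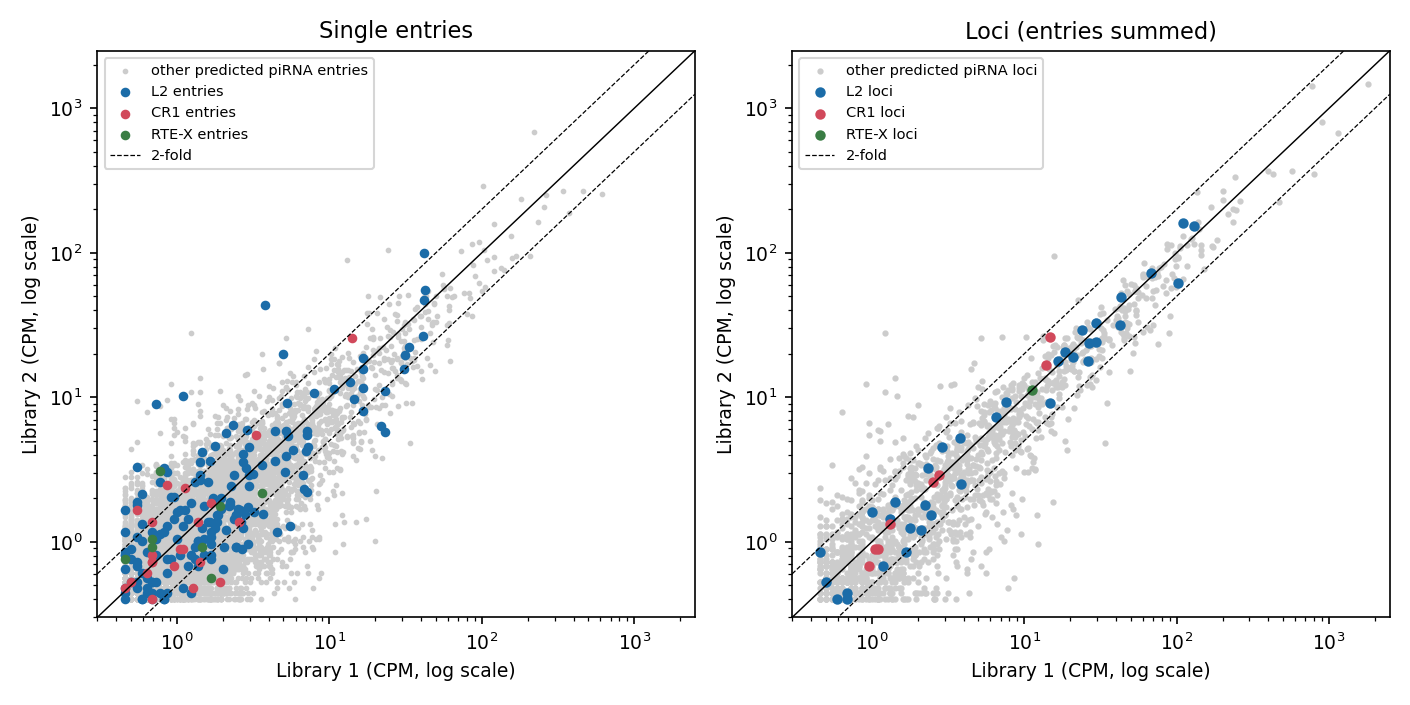
Level in library 2 against library 1 in CPM on log axes, for single predicted piRNA entries (left) and for loci with their entries summed (right), with L2, CR1 and RTE-X in colour, other repeats in grey, the line of equality solid and the 2-fold lines dashed. Among member entries 53 of 202 lie beyond the 2-fold lines, whereas 0 of 44 member loci do.

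The identity of the leading entry was more stable than its share. In 27 of the 30 loci with 2 or more entries the same entry was highest in both libraries, and in 12 of the 13 loci with at least 5 entries. All 13 of these had entries higher in library 2 beside entries higher in library 1. Over these 13 loci the leading entry of each library held a median of 44.8% of the locus in library 1 and 33.3% in library 2, with ranges of 24.1% to 62.5% and 20.1% to 66.1%. Among the 10 highest member entries, novel_pir50804 in an L2 locus on chromosome 7 (plus strand, 69924016 to 69924124) was the most even between the libraries, with 367 and 462 counts.

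The loci lay on 16 chromosomes, with 23 on the plus and 21 on the minus strand and 0 on X or Y. The sources do not say whether the deposited strand is that of the repeat or of the RNA. Of 311 neighbouring predicted piRNA loci of different repeat class within 10 kb of each other, 159 were on the same deposited strand, and 12 of the 24 loci that directly abut the locus before them were on the opposite strand. Positions relative to genes are therefore given for the deposited strand and for either strand.

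On the deposited strand 14 of the 44 loci (31.8%) lay in a gene, 4 on an exon and 10 in an intron, compared with 15.0% of the other 1604 predicted piRNA loci. On either strand 28 (63.6%) did, 8 on an exon and 20 in an intron, against 36.0% of the others. Most of these genes were noncoding, and the 11 loci with a protein-coding gene on either strand held 8.60% and 8.20% of the member counts. The 16 loci outside genes on both strands held 51.7% and 58.3%. Only 2 loci lay in an exonic UTR, both L2 and both low. One was in the UTR of Tex261 on chromosome 6 (minus strand, 83769227 to 83769358), with 22 and 40 counts. The other was in that of Irgq, an immunity-related GTPase gene, on chromosome 7 (plus strand, 24535699 to 24536020), with 10 and 21 counts. The levels in the coding genes were mostly at the low end, since the median of these 11 loci was 1.38 CPM and that of the 16 loci outside genes was 14.1 CPM. The exceptions were the Stox1 locus, at a mean of 36.8 CPM, and the Gm37240 locus, at 20.5 CPM. Whether these loci are transcribed with the genes was not tested.

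Non-L1 LINE loci lay close to other predicted piRNA loci. Within 10 kb and on the same deposited strand, 30 of 44 (68.2%) had another predicted piRNA locus, compared with 31.9% of L1 loci, 38.6% of ERVL-MaLR loci, 64.3% of DNA transposon loci and 32.9% of all other loci. Within 1 kb on the same deposited strand the members did not stand out. There 9 of 44 had another locus, beside 309 of the 1604 other loci, 34 of 116 ERV1 loci and 20 of 56 DNA transposon loci. Within 10 kb on either strand the share was 33 of 44 (75.0%) against 37.5%. The 33 loci with such a neighbour had a median of 8.47 CPM and held 93.0% and 92.6% of the member counts, while the 11 without had a median of 1.38 CPM. The median distance to the nearest other locus was 1721.5 bp for the members and 56802 bp for all others together. Within these others it was 998.5 bp for DNA transposon loci, shorter than for the members, and 6568 bp for ERV1 loci. These shares are a description, because loci of 1 region share their source. Among the 11 isolated loci the chromosome 3 L2 locus opposite Gm21388 and the chromosome 3 CR1 locus were the highest, and the nearest other locus was 423364 bp from the first.

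**Figure D4:**
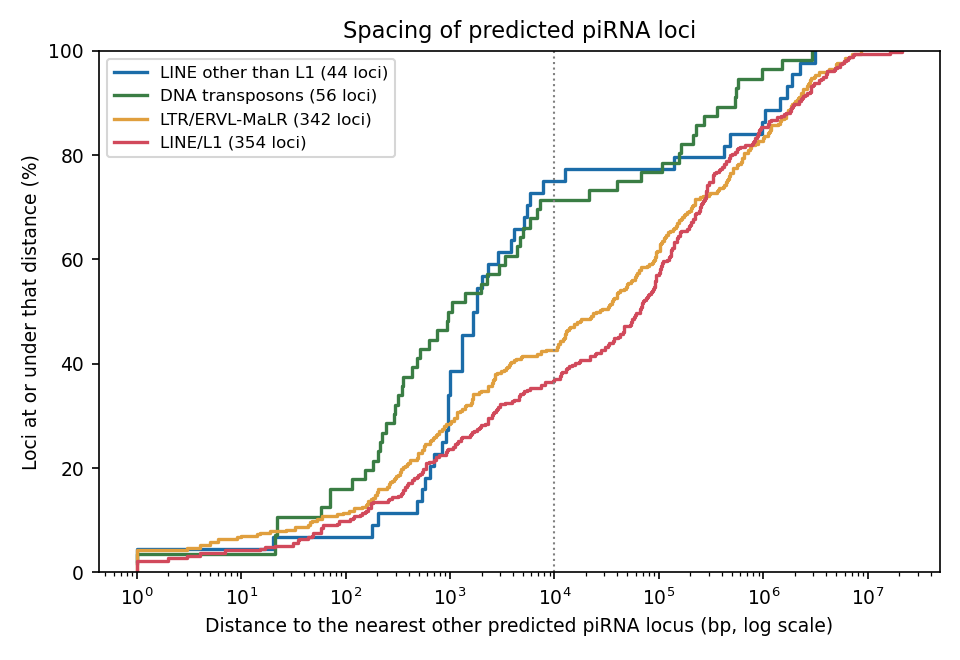
Share of loci whose nearest other predicted piRNA locus, on either strand, is at or under a given distance in bp (log axis, with distances under 1 bp drawn at 1), for LINEs other than L1, DNA transposons, ERVL-MaLR and L1, with a dotted line at 10 kb. At 10 kb the non-L1 LINE curve is at 75.0% and the DNA transposon curve at 71.4%, above ERVL-MaLR at 42.7% and L1 at 37.0%.

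When members within 50 kb of each other were joined, they formed 26 groups. In 9 of these there were 2 or more loci, 27 in all, which held 77.6% of the member counts in library 1 and 78.8% in library 2. Members of both deposited strands were present in 5 of the 9. The group of highest level, on chromosome 6 (127786534 to 127817839), had 4 L2 loci at 146 and 201 CPM, 1 on the plus and 3 on the minus strand, beside 17 loci of other repeats at 602 and 593 CPM. The chromosome 15 group (59257942 to 59280389) had 2 loci at 136 and 160 CPM, which was 34.6% and 40.1% of the predicted piRNA counts there. The chromosome 7 group (73793185 to 73812253) had 3 loci at 120 and 81.9 CPM. On chromosome 2 (92548821 to 92597615) 5 loci, all on the plus strand, had 59.9 and 51.8 CPM beside 11 loci of other repeats.

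The share of the members in such a region varied widely. On chromosome 4 the 1700029M20Rik pair of loci held 82.8% and 79.4% of the predicted piRNA counts within 10 kb, with 1 L1 locus as the other source at 14.3 and 18.8 CPM. On chromosome 17 (27332998 to 27365055) 5 loci held 1.48% and 1.43%, with 439 and 521 counts beside 21 loci of other repeats at 1330 and 1450 CPM. The latter was the group with the highest level of other repeats. Around the chromosome 7 members the 10 loci of other repeats summed to 304 and 299 CPM, with single loci higher in either library.

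**Figure D5:**
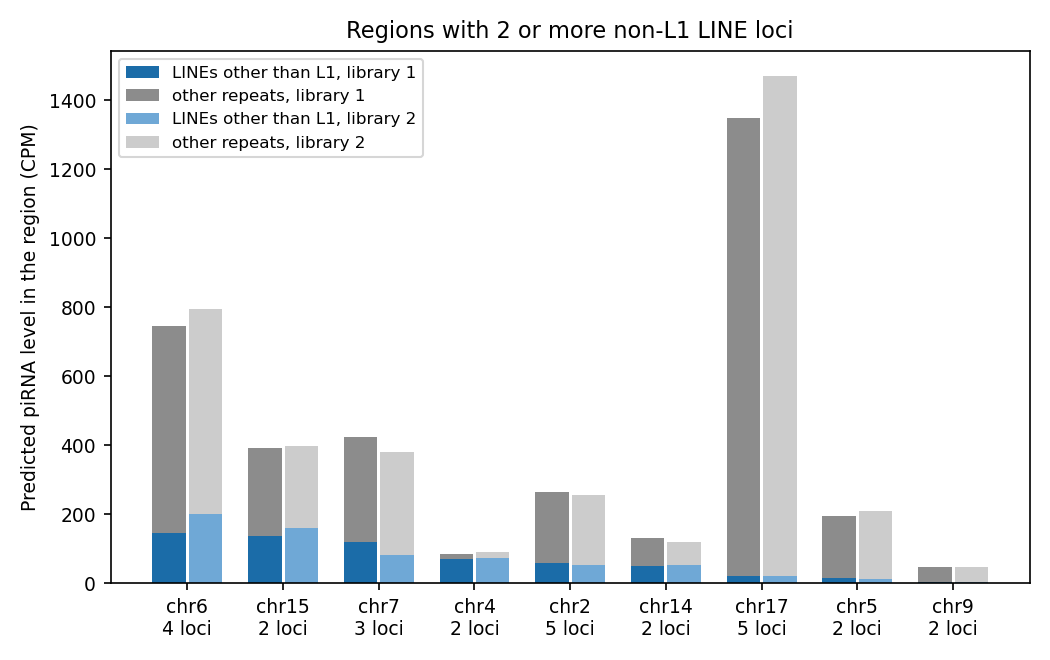
Level of predicted piRNAs in the 9 regions with 2 or more non-L1 LINE loci, in CPM, as stacked bars for library 1 (left, darker) and library 2 (right, lighter), with LINEs other than L1 in blue and loci of other repeats within 10 kb in grey. The members make up most of the chromosome 4 region and a thin strip of the chromosome 17 region, where other repeats reach 1330 and 1450 CPM.

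Predicted miRNAs were listed near several of the same loci. Within 10 kb, 17 of the 44 loci had a predicted miRNA, 18 different ones in all, and 17 of the 18 were on the deposited strand of a member locus in reach. The highest, novel_mir4, had 11250 and 3859 counts and lay 3865 bp from the chromosome 15 L2 locus at 59279939 to 59280389, itself at 144 and 182 counts. Only novel_mir902 overlapped a member, sharing 40 bases with the chromosome 2 L2 locus at 92597545 to 92597615. It had 1049 and 690 counts, against 63 and 113 for the predicted piRNAs of that locus, and its counts were not placed within the shared bases.

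As a check of the tissue, all 5 testis-enriched miRNAs looked for (such as miR-34c-5p and miR-741-3p) were listed, at a summed 4973 and 3456 CPM in libraries 1 and 2. The gonadal somatic miR-202 arms summed to 414 and 373 CPM. The blood miRNAs miR-451a and miR-144-3p summed to 633 and 358 CPM. Liver, neuron and striated muscle markers were also listed, at 8.37 and 3.50, 48.3 and 24.3, and 7.69 and 7.65 CPM. Whether RNA from other cells contributed to the members was not tested.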

How the data were processed

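Small RNA of testicular EVs was sequenced by the authors on the BGISEQ-500 platform in 2 libraries of 1 condition. Their methods and processing notes name Bowtie2 for mapping, with Piano for the prediction of piRNAs, with versions and assembly not given in the sources used here. Deposited by the authors were a whole-number count per entry with no normalization, and a TPM value that is tags per 1000000 of a larger total with no length correction, so its unit is RPM. The listed entries hold 93.7% and 94.9% of that total.

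CPM were computed over all listed counts of a library. Ratios used 0.5 added counts, and exact intervals came from SciPy 1.17.1. Alternatives used edgeR 4.0.16 and DESeq2 1.42.0 in R 4.3.3. The ratio step was tested on simulated data. Predicted piRNA intervals were read as 1-based, whereas 1 was added to the starts of predicted miRNA intervals. Both were compared with GENCODE M21 (GRCm38). There 9 of 168 predicted miRNAs lay on an annotated small RNA gene, against 0 and 1 after shifts of 1000 bp down and up. Python 3.11.15 with NumPy 2.4.6 and pandas 2.3.3 was used, and matplotlib 3.10.9 for plots.

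Named by rule were the 10 highest loci, all CR1 and RTE-X loci, the 5 loci and 5 entries furthest apart with at least 100 mean counts, the 10 highest entries and the highest entry of each named locus. Other loci, entries and regional groups, the nested repeat, Mir582 and the predicted miRNAs were chosen after their values were seen. Members, lists and the rule were chosen with earlier results of these data known.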

Additional observations from a re-analysis of the deposited data

How the results depend on the processing

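Across 11 results and 44 alternative values, 29 stayed close to the reported value and 15 moved. The median log2 ratio of -0.14 over entries was 0.02 over loci, so its sign turned, and the order of the libraries for the summed level turned under TMM, DESeq2 and the filter of 100 counts. The summed level of 814 CPM became 3113 CPM over listed counts without the 4 unannotated entries, 767 with the deposited TPM values and 506 with entries of at least 100 counts in both libraries. That filter left 16 of the 44 loci and put L2 at 96.0% of member counts. Without the highest locus the share of predicted piRNA counts was 2.85% and that of L2 91.6%. With a mean count of at least 100, 14 of 39 member entries (35.9%) were over 2-fold apart, against 265 of 917 predicted piRNA entries (28.9%). One locus was over 2-fold apart (1 under TMM and 1 under DESeq2), and the median log2 ratio of member entries was -0.33 and -0.32, while that of all listed entries moved from 0.19 to 0.01 under both. Loci in genes numbered 28 on either strand and 6 with protein-coding genes only. Loci with a neighbour within 1 kb on the same strand numbered 9, beside 309 of the 1604 other loci. Joining at 10 kb in place of 50 kb, chosen after seeing the data, gave 33 groups, and at 100 kb 26. Leaving out each library in turn gave 795 to 832 CPM. No paired analysis was possible because the libraries form a single group. A planned count of genome copies and GC content over all loci was not run, since no genome was used here. The lowest loci rest on as few as 10 counts in a library, which limits their ratios.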
